A study of Rattus norvegicus with 4 samples.

Results

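The genes described here are 46 interferon-stimulated antiviral genes, chosen by name as a list of genes that interferons switch on and whose products act against viruses. Of these, 43 had at least 1 named probe on the array, among 16506 genes with a named probe in all. Ifi44l, Herc6 and Xaf1 had none and were not measured. Their levels were read in NR8383, an established line of rat alveolar macrophages that came from the lung lavage of a normal animal and grows partly attached and partly floating. The series holds a single group of 4 single-colour arrays, each from its own biological replicate of serum control cells past 20 passages, kept for 4 h in DMEM with 10% fetal bovine serum; the labels attach the letters ALI to this condition without explaining them. The cells had been grown with 15% serum. With no second condition, nothing here measures a response to interferon or to a virus: the values are the levels of these genes in control culture and how far the 4 replicates differed.

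Interferons are secreted proteins that bind paired receptor chains on the cell surface. Type I receptors act through the kinases Jak1 and Tyk2, which phosphorylate Stat proteins, Stat2 among them, and these join Irf9 in a complex that binds the interferon-stimulated response element in the promoters of antiviral genes. Interferon gamma acts through Jak1 and Jak2, and its signal reaches promoters at gamma-activated sites. Alveolar macrophages are known producers of type I interferon in the virus-infected lung, and many cells keep low levels of these genes without any infection.

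A gene was called detected when the scanner software marked at least 1 of its probes as well above background in all 4 replicates. By that rule 40 of the 43 measured genes were detected (93%), against 53.1% of all named genes. The software's other flag, positive and significant, was set on all arrays for 41 of the 43 (66.9% of all named genes). Against the 95th percentile of the array's negative control spots, limma's one-sided test called 42 of the 43, against 69.8% of all named genes (Benjamini-Hochberg over all probes, adjusted p under 0.05). Each of the 40 detected genes was then represented by its probe farthest above the negative controls. These probes lay between 3.10 (Ifih1) and 12.50 (Igtp) log2 units over the controls. Their largest adjusted p in that limma test was 4.35e-05 (Ifit3). Second probes of some genes lay lower, among them those of Rsad2 (-0.40, limma adjusted p = 0.985) and Dtx3l (0.68, limma adjusted p = 0.078). In RNA from a whole culture, fewer cells expressing a gene and less of its RNA per cell cannot be told apart.

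Ifit1, Ifitm3 and Adar were the 3 measured genes that were not detected. Ifit1, which binds viral RNA ends, gave processed signals of 2.27, 2.50, 2.54 and 7.17 on replicates 1 to 4 and was not called by limma either (adjusted p = 0.719). Ifitm3, which blocks virus entry through endosomes, gave 3.62, 4.29, 7.77 and 5.97 and was well above background on no array, although limma placed it 0.65 log2 units over the negative controls (adjusted p = 0.0284). The RNA-editing enzyme gene Adar gave 12.1, 9.94, 17.6 and 12.1 and was well above background on 1 array (limma adjusted p = 9.62e-05). No more can be said of Ifit1 than that its probe did not rise above the controls in these cells.

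Levels below are log2 processed signals minus the 75th percentile of the same array, so that 0 is the array's own 75th percentile. They compare arrays for the same gene, and levels of different genes are not set against each other. A deviation is the level on an array minus the mean of the other 3 arrays. All arrays came from a single slide and scan. Replicate 1 was the dimmest array, with a 75th percentile signal of 83.2 against 112 to 168 and with 50.9% of spots well above background against 53.9% to 58.9%.

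Most genes of the list were highest on replicate 1. Of the 40 detected genes, 27 were highest on replicate 1 (67.5%), against 42.3% of all detected genes, and 5 were lowest there (Usp18, Ifit3, Isg20, Rsad2 and Dtx3l), against 32.7%. Its level was above the mean of the other 3 arrays for 33 genes (82.5%, against 55.9% of all detected genes). A higher level by more than 0.5 log2 units on replicate 1 was seen for 18 genes (45%, against 18.5% of all detected genes), and a lower level by more than 0.5 for 4 genes (10%, against 13.5%). The median deviation of the list on replicate 1 was 0.47, with quartiles of 0.10 and 0.75, whereas that of all detected genes was 0.07, with quartiles of -0.27 and 0.38. With 1 group and no array set apart by its label, this is a description of 4 arrays and carries no test.

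**Figure D1:**
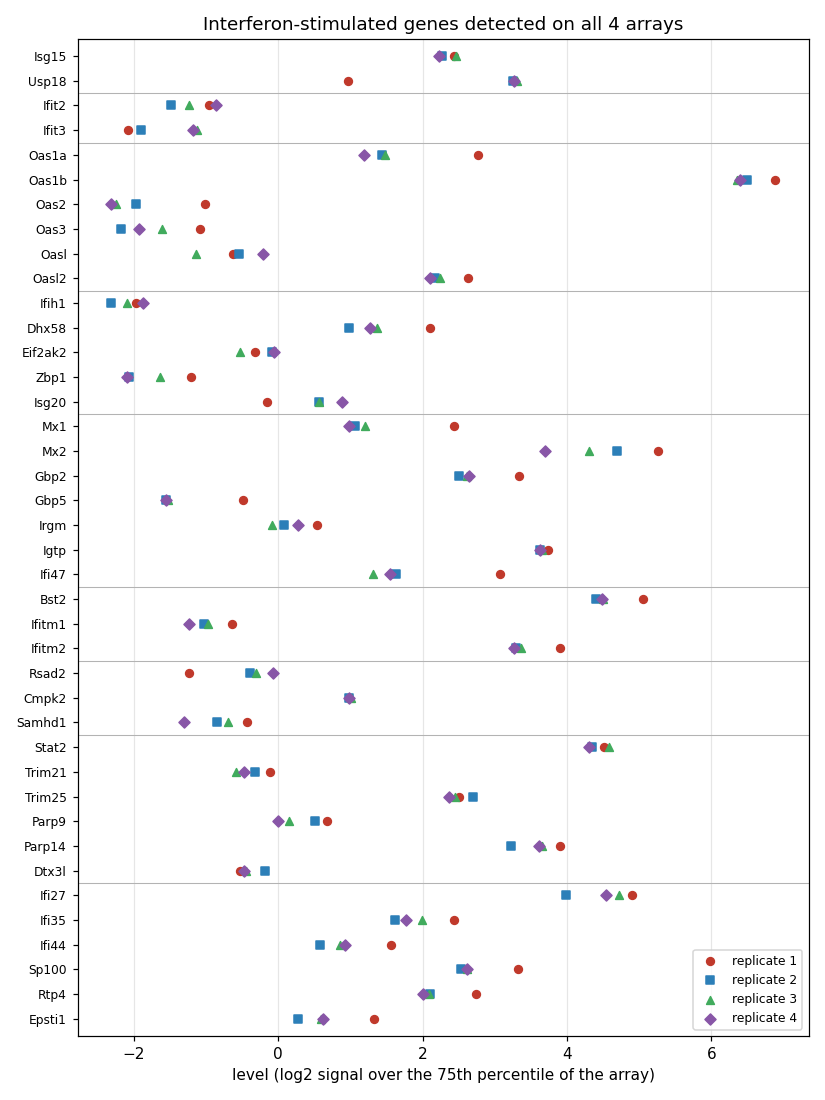
Level of each of the 40 detected interferon-stimulated genes on replicates 1 to 4, as log2 signal over the array's 75th percentile on the horizontal axis; grey lines separate the roles. Replicate 1 is the highest of the 4 for 27 genes, while Usp18 reads 0.97 there and at least 3.26 on the others.

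The ubiquitin-like modifier and its protease behaved differently from each other. Isg15, which is attached to other proteins during an antiviral response, had levels of 2.43, 2.26, 2.46 and 2.23 on replicates 1 to 4, an SD of 0.12. Usp18, the protease that takes Isg15 off its targets and also restrains signalling at the type I receptor, had levels of 0.97, 3.26, 3.32 and 3.26. Replicates 2 to 4 of Usp18 lay close together, and replicate 1 lay 2.31 below their mean, the largest deviation in the list. Before any scaling the Usp18 signal was 163 on replicate 1 and 1070, 1260 and 1610 on the others. Usp18 was measured by 1 probe in 1 spot per array, so the low reading on replicate 1 has no second probe beside it. Under the 12 settings tried the deviation ranged from -2.40 to -2.04.

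The oligoadenylate synthetases, enzymes that make the short oligoadenylates which activate RNase L when they sense double-stranded RNA, were all detected, and 5 of 6 were highest on replicate 1. Oas1a had levels of 2.77, 1.44, 1.48 and 1.19. Its 2 probes gave the same order on replicate 1: 1 probe read 3.46 there and 1.56 to 1.86 on the others, and the other read 2.08 against 0.83 to 1.20. Oas2 had levels of -1.01, -1.96, -2.25 and -2.32. Oas3 had levels of -1.08, -2.18, -1.61 and -1.92. In these 3 genes replicate 1 was above each of replicates 2 to 4, with deviations of 1.40, 1.17 and 0.82. Oas1b, whose mouse counterpart is known for flavivirus resistance, had levels of 6.89, 6.49, 6.36 and 6.40, a smaller gap of 0.47. Of the Oas-like genes, Oasl2 had levels of 2.62, 2.17, 2.24 and 2.10. Oasl was the exception, with -0.63, -0.54, -1.14 and -0.21 and a deviation on replicate 1 of 0.00. Rat carries many near-identical copies of the Oas1 genes, and the files do not give probe sequences, so what each Oas1 probe binds besides its target is uncertain.

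All 7 GTPase genes were detected and all 7 were highest on replicate 1, Igtp only in the mean of its 2 probes. These encode dynamin-like and immunity-related GTPases, some of which assemble on viral particles or on the vacuoles of intracellular pathogens. Mx1, the classical barrier to influenza virus in rodents, had levels of 2.43, 1.07, 1.20 and 0.98. Mx2 had levels of 5.26, 4.70, 4.31 and 3.70. Replicate 1 was 1.35 above the others for Mx1 and 1.02 above for Mx2. The single Mx2 spot lies in or beside a patch of the array surface that was dim on replicate 4, which touches the value of 3.70; leaving out the spots of that patch leaves no value for Mx2.

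The guanylate-binding proteins Gbp2 and Gbp5, which coat pathogen vacuoles and promote inflammasome activation, were higher on replicate 1 as well. Gbp2 had levels of 3.33, 2.50, 2.62 and 2.64, and Gbp5 had levels of -0.49, -1.55, -1.52 and -1.55. For Gbp5 the readings of replicates 2 to 4 were nearly the same and replicate 1 lay 1.05 above them. Of the immunity-related GTPases, Ifi47 had levels of 3.08, 1.64, 1.32 and 1.55, and its deviation of 1.57 was the largest upward one in the list. Irgm had levels of 0.54, 0.08, -0.08 and 0.27. Igtp differed little, with 3.73, 3.62, 3.65 and 3.62. Its 2 probes read far apart (0.07, 0.12, -0.18 and -0.09 for 1 probe and 7.39, 7.12, 7.49 and 7.34 for the other). The probes were highest on replicates 2 and 3, and the mean of such a pair is not a level of the gene.

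RNA sensors and RNA-acting enzymes split in direction. Dhx58, a helper of the cytoplasmic RNA helicase sensors, had levels of 2.10, 0.98, 1.37 and 1.28, and Zbp1, which senses left-handed nucleic acid and can trigger cell death, had -1.21, -2.07, -1.63 and -2.10; replicate 1 was highest for both, by 0.89 and 0.72. Isg20, an exonuclease that degrades RNA, ran the other way with -0.16, 0.56, 0.56 and 0.89, lowest on replicate 1 by 0.83. Neither Ifih1, the sensor of long double-stranded RNA, nor the kinase gene Eif2ak2, which halts translation when it binds such RNA, stood apart. Ifih1 had levels of -1.97, -2.31, -2.09 and -1.87, and Eif2ak2 had -0.32, -0.09, -0.53 and -0.06. Replicate 1 lay between the other readings of both. The 2 Eif2ak2 probes differed in level (0.13 to 0.44 and -1.20 to -0.54), and neither was highest on replicate 1.

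Of the Ifit genes, Ifit2 had levels of -0.96, -1.48, -1.23 and -0.86 and Ifit3 had -2.08, -1.89, -1.13 and -1.17. Replicates 1 and 2 were the lower pair for Ifit3, so its deviation of -0.68 on replicate 1 is not particular to that array. Under the settings tried the Ifit3 deviation ran from -0.93 to -0.08.

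Membrane restriction factors were higher on replicate 1. Bst2, which tethers budding virus to the cell surface, had levels of 5.06, 4.40, 4.50 and 4.49. Ifitm2 had levels of 3.90, 3.29, 3.36 and 3.26, and Ifitm1 had -0.63, -1.03, -0.97 and -1.24. In each of the 3 genes replicate 1 lay above the range of the others, with deviations of 0.60, 0.59 and 0.44. The Ifitm1 and Ifitm2 probes were printed 10 times per array, and the SD between spots of an array was 0.25 for Ifitm1 and 0.08 for Ifitm2. Between arrays the SD of the probe means was 0.30 for Ifitm2 and 0.25 for Ifitm1. A mean over 10 spots varies less than a single spot, so these SDs and the spot SDs are not like measures.

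The enzymes of nucleotide and lipid metabolism showed 3 patterns. Rsad2 encodes viperin, which makes a chain-terminating nucleotide, and Cmpk2 is a nucleotide kinase gene next to it in the genome. Rsad2 had levels of -1.24, -0.40, -0.30 and -0.07 on the probe that was detected, lowest on replicate 1 by 0.98. A second Rsad2 probe was well above background on no array. Cmpk2 had levels of 0.98, 0.98, 1.003 and 0.98, the smallest SD in the list at 0.01. Samhd1, which breaks down the deoxynucleotides that viruses need, had -0.43, -0.85, -0.70 and -1.31, highest on replicate 1. The neighbouring genes Rsad2 and Cmpk2 therefore differed in whether replicate 1 stood apart.

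Signalling proteins, ubiquitin ligases and ADP-ribosyl transferases varied least, with a median SD of 0.18 against 0.36 for the whole list and 0.24 for all detected genes. Stat2, a transcription factor of type I signalling, had levels of 4.51, 4.35, 4.58 and 4.31. Trim25, a ligase that activates cytoplasmic RNA sensing, had 2.51, 2.69, 2.45 and 2.37 as the mean of 2 probes that read far apart (0.53 to 1.12 and 4.14 to 4.31). Dtx3l had -0.52, -0.19, -0.45 and -0.47 on the probe that was detected, and its other probe was well above background on no array. Replicate 1 lay inside the range of the others for Stat2 and Trim25. Parp9, which forms a complex with Dtx3l, had levels of 0.68, 0.51, 0.15 and -0.01, and Parp14 had 3.90, 3.23, 3.66 and 3.61. Trim21, a cytoplasmic antibody receptor, had -0.11, -0.32, -0.59 and -0.47 on its detected probe. Parp9, Parp14 and this Trim21 probe were highest on replicate 1, by 0.46, 0.40 and 0.34. Another Trim21 probe, for a different transcript record, was well above background on 3 arrays. It read -2.65, -2.71, -1.98 and -2.65, highest on replicate 3.

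The 6 remaining detected genes were all highest on replicate 1. Epsti1 had levels of 1.33, 0.28, 0.60 and 0.61, and Ifi44 had 1.57, 0.58, 0.85 and 0.92. Both probes of Ifi44 were highest on replicate 1, at 1.85 against 0.78 to 1.17 and at 1.28 against 0.37 to 0.67. Sp100, a component of nuclear bodies that silence viral genomes, had 3.33, 2.53, 2.62 and 2.62. Rtp4 had 2.74, 2.10, 2.09 and 2.01. For Sp100 and Rtp4 the readings of replicates 2 to 4 lay close together, below replicate 1 by 0.73 and 0.68. Ifi35 had levels of 2.44, 1.61, 1.99 and 1.77, and Ifi27 had 4.90, 3.98, 4.72 and 4.54. For Ifi27 replicate 2 was the array farthest from the rest, with a deviation of -0.74.

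**Figure D2:**
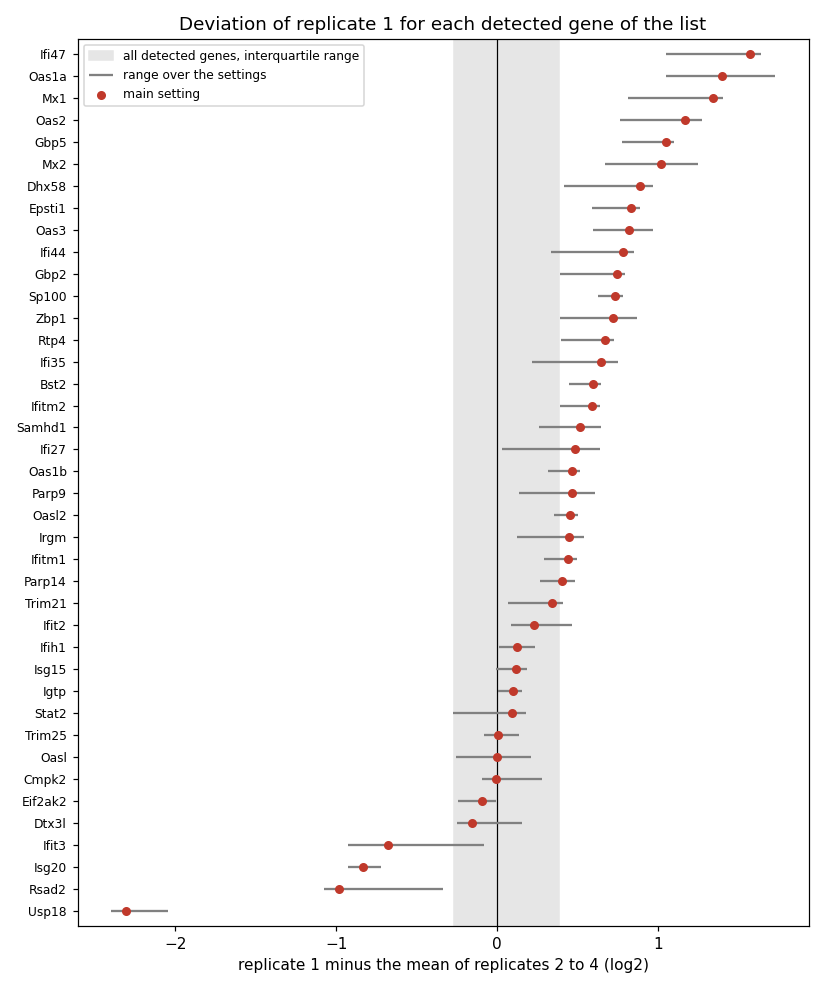
Deviation of replicate 1 from the mean of replicates 2 to 4 for each detected gene (log2, horizontal axis), with the range over the settings tried as a grey line and the interquartile range of all detected genes shaded. Ifi47 is the highest at 1.57 and Usp18 the lowest at -2.31.

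The size of the deviation differed between scalings and between levels of signal. Scaling to reference genes gave a median deviation of the list on replicate 1 of 0.52 (0.12 for all detected genes), the percentile over detected probes gave 0.38 (-0.02 for all), quantile normalization gave 0.45 (0.02 for all) and normexp background correction gave 0.30 (0.03 for all). In the 14 genes with a mean level below 0 the median deviation was 0.29 (0.06 in all detected genes of that band), in the 11 between 0 and 2 it was 0.78 (0.01 in all), and in the 15 above 2 it was 0.47 (0.11 in all). Of the 40 genes, 34 kept the sign of their deviation in every setting that gave them a value, and the 6 that changed sign were Isg15, Stat2, Trim25, Dtx3l, Cmpk2 and Oasl, whose deviations lay between -0.16 and 0.12. The spread of the list was smaller without replicate 1, as was that of all detected genes. The median SD was 0.36 over 4 arrays (0.24 for all detected genes) and 0.17 without replicate 1 (0.15 for all). An SD over 0.5 was found for 8 of the 40 genes (20%, against 10.3% of all detected genes). By Dixon's ratio a single array stood apart from the other 3 for 7 of the 40 (17.5%, against 8.32% of all detected genes for any array). Each time it was replicate 1: low for Usp18, high for Mx1, Gbp5, Bst2, Ifitm2, Sp100 and Rtp4. The share of all detected genes set apart on replicate 1 was not counted.

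The promoters of these genes were compared with the 2 sequence elements through which interferons act. The core searched for the interferon-stimulated response element was TTTC, any 2 bases and TTTC, and that for the gamma-activated site was TTC, any 3 bases and GAA. Both strands were read, overlapping matches were counted separately, and a match of each element overlaps only in Bst2. The search ran in windows of 300 bases from 250 before to 50 after the gene start. RefSeq promoters of the GRCr8 build were at hand for 35 of the 46 genes. Isg15, Usp18, Mx2, Ifit1, Ifit2, Oas2, Dhx58, Adar, Zbp1, Ifitm1 and Rtp4 are without one here. The response element core was found in 24 of the 35 promoters (68.6%), against 4.12% of 27457 genes with a promoter, and the gamma-activated core in 10 (28.6%), against 9.39%. Together 26 of the 35 held a match of either. Of 31 response element matches in these promoters 74.2% began within the 100 bases before the start, against 34.6% of the matches in all promoters. A match is a run of letters and no evidence of binding.

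The promoters printed here belong to genes that were highest on replicate 1 (Oas1a, Gbp5, Ifi47) or lowest there (Rsad2, Isg20 and, with replicate 2 close to it, Ifit3), with Oas1b as the close relative of Oas1a. Capitals mark the matches of either core. The sequences run 5′ to 3′ along the gene and come from RefSeq, GRCr8, with that of Oas1a at chr12:41330216-41330515 on the plus strand, that of Oas1b at chr12:41395803-41396102 on the minus strand, that of Gbp5 at chr2:233910749-233911048 on the plus strand, that of Ifi47 at chr10:33798494-33798793 on the plus strand, that of Rsad2 at chr6:48788071-48788370 on the minus strand, that of Isg20 at chr1:142239809-142240108 on the plus strand and that of Ifit3 at chr1:241527076-241527375 on the plus strand.
Oas1a promoter: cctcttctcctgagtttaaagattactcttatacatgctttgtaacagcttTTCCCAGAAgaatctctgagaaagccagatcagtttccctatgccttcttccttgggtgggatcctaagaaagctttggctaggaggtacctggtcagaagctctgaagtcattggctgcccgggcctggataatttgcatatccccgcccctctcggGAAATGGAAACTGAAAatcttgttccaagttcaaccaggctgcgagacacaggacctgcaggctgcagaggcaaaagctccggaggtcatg
Oas1b promoter: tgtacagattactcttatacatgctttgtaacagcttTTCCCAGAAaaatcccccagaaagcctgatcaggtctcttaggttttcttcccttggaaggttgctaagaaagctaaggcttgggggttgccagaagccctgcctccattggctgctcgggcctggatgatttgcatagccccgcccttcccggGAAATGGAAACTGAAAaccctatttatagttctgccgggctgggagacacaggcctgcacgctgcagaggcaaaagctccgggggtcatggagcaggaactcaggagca
Gbp5 promoter: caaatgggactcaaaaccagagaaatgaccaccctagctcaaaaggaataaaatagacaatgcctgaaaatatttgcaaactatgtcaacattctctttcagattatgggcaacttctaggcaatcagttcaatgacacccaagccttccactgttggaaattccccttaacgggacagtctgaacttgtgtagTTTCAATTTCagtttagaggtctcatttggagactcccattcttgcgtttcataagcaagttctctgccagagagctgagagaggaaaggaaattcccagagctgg
Ifi47 promoter: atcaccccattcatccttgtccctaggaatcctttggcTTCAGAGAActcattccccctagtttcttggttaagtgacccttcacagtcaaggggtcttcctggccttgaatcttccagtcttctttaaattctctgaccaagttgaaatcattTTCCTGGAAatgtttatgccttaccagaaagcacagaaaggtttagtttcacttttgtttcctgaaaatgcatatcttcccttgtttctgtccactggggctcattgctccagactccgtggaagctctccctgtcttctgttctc
Rsad2 promoter: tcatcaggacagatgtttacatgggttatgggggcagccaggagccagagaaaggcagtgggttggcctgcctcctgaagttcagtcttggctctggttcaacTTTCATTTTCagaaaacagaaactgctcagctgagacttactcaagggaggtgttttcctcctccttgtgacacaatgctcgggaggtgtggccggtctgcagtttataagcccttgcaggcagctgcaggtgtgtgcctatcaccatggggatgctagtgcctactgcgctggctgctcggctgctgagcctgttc
Isg20 promoter: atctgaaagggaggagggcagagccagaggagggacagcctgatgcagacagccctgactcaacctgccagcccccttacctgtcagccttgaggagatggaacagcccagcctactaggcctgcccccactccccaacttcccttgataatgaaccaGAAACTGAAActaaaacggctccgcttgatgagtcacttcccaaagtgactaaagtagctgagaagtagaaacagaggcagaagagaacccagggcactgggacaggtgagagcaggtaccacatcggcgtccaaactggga
Ifit3 promoter: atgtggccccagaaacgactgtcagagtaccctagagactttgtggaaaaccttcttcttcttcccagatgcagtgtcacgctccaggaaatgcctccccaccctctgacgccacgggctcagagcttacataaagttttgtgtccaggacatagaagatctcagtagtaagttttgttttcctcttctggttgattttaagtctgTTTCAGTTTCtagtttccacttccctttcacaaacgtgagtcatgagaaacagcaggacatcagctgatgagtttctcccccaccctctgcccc

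Oas1a and Oas1b share a run of overlapping response element cores, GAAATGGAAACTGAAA, beginning at -41 and -59 from the gene start, and both hold the gamma-activated core TTCCCAGAA farther upstream, at -199 and -213. Gbp5 holds TTTCAATTTC at -56. Ifi47, with the largest upward deviation, holds no response element core in this window but 2 gamma-activated cores, at -212 and -96. The genes that were lower on replicate 1 hold the response element core too: TTTCATTTTC at -147 in Rsad2, GAAACTGAAA at -92 in Isg20 and TTTCAGTTTC at -44 in Ifit3. No match of either core lies in the windows of Mx1, Sp100, Ifi35, Parp9, Stat2, Trim25, Cmpk2, Oasl and Herc6.

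Genes with and without the response element core had similar medians on replicate 1, a difference that was not tested. The 21 detected genes with it had a median deviation on replicate 1 of 0.45, with 15 highest and 4 lowest there, and the 10 detected genes with a promoter but no match had 0.49, with 6 highest and 0 lowest. Among the 221 other detected genes whose promoter holds the core, the median deviation was 0.08, and among the 7067 without it 0.07.

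**Figure D3:**
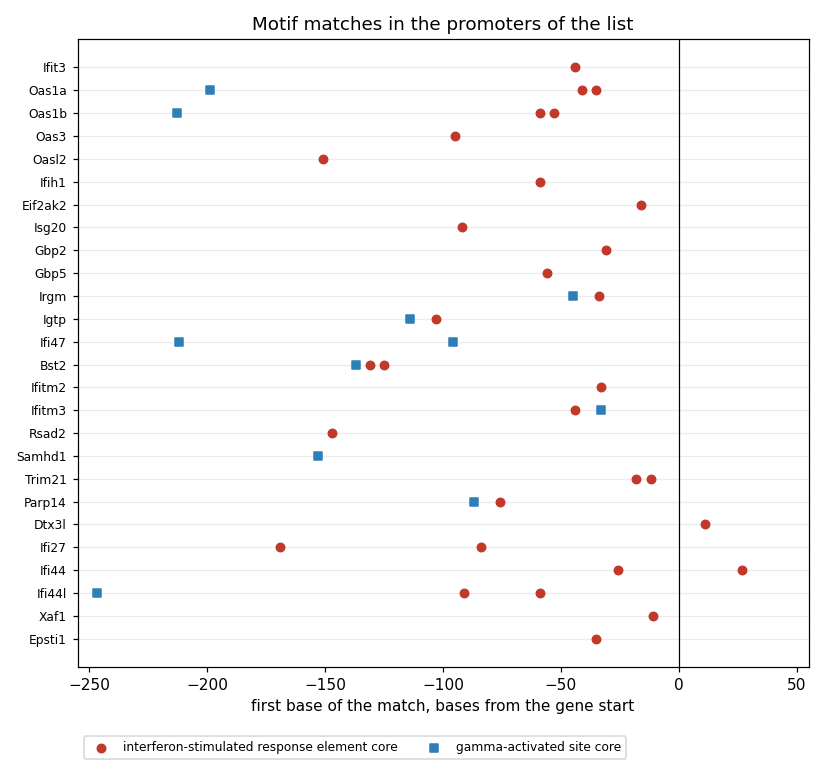
First base of each match of the 2 cores, in bases from the gene start on the horizontal axis, for the 26 promoters of the list that hold a match. Of the matches of the response element core (red points) 74.2% lie within 100 bases before the start, and blue squares for the gamma-activated core lie between -247 and -33.

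Few interferon genes, the ligands of the pathway, were detected. Of 12 ligand genes looked for, 6 had a named probe and 1 was detected (16.7%, against 53.1% of all named genes). This was Ifna4, with levels of -1.47, -1.24, -1.08 and -1.11. Interferon alpha genes are near-identical copies, so this probe may report others of the family. Ifnb1, Ifna2, Ifnk and Ifng were well above background on no array. Of these 6 ligand genes limma called 2 above the negative controls, against 69.8% of all named genes.

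Receptor chains were present, 4 of the 5 measured (80%, against 53.1% of all named genes). Ifnar2, the other type I chain, had no named probe, and the measured type I chain ran against the list. Ifnar1, a chain of the type I receptor, had levels of -0.06, 1.19, 0.87 and 1.03 and was lowest on replicate 1, by 1.09. Ifngr1, which binds interferon gamma, had 5.01, 4.67, 4.46 and 4.31, and its partner Ifngr2 had 3.77, 3.54, 3.70 and 3.44. Il10rb, shared by the type III receptor, had 3.30, 2.68, 2.77 and 2.55. These 3 were highest on replicate 1. Ifnlr1, the specific chain of the type III receptor, was well above background on no array.

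Kinases and transcription factors of the pathway were detected for 9 of 10 genes (90%, against 53.1% of all named genes), Irf8 being well above background on 1 array. All 9 were highest on replicate 1, against 42.3% of all detected genes. Jak1, the kinase shared by the receptors of all interferons, had levels of 4.27, 3.69, 3.47 and 3.40, and Jak2 had 0.82, 0.36, 0.18 and 0.56. For these genes replicate 1 was above the others by 0.75 and 0.45. Irf9, the DNA-binding partner in the type I complex, had 1.36, 1.06, 1.08 and 1.04, higher on replicate 1 by 0.30. Tyk2 had -0.23, -0.39, -0.25 and -0.42, a gap of only 0.13. Irf7, which amplifies type I interferon production and is named because its gap of 1.46 was the widest of the 9, had levels of 4.00, 2.36, 2.94 and 2.33.

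Sensors and brakes did not share this. Of 9 measured sensors and adaptors 7 were detected (77.8%, against 53.1% of all named genes). Of the 7, 2 were highest on replicate 1, against 42.3% of all detected genes, and the median deviation there was -0.03. Mavs, the mitochondrial adaptor of RNA sensing, had 2.42, 2.81, 2.82 and 2.60, and Sting1, the adaptor of DNA sensing, had -0.27, -0.29, -0.16 and -0.76. The RNA sensor genes Tlr3 and Tlr8 had -0.13, -0.26, -0.02 and -0.03, and -1.39, -2.54, -1.72 and -1.95, so that Tlr8 was among the exceptions. Of 8 brakes 7 were detected (87.5%, against the same 53.1%). Of the 7, 1 was highest on replicate 1, against the same 42.3%, and the median deviation there was -0.05. Socs3 had levels of 1.63, 1.93, 1.44 and 1.65, and Pias1 had -2.54, -1.51, -1.63 and -1.44, lowest on replicate 1. The phosphatase genes Ptpn6 and Ptpn11 had 8.01, 7.57, 7.84 and 7.61, and 1.42, 1.35, 1.46 and 1.39. Socs1, a brake on the receptor-bound kinases that interferon induces, was well above background on no array, though limma called it above the negative controls.

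**Figure D4:**
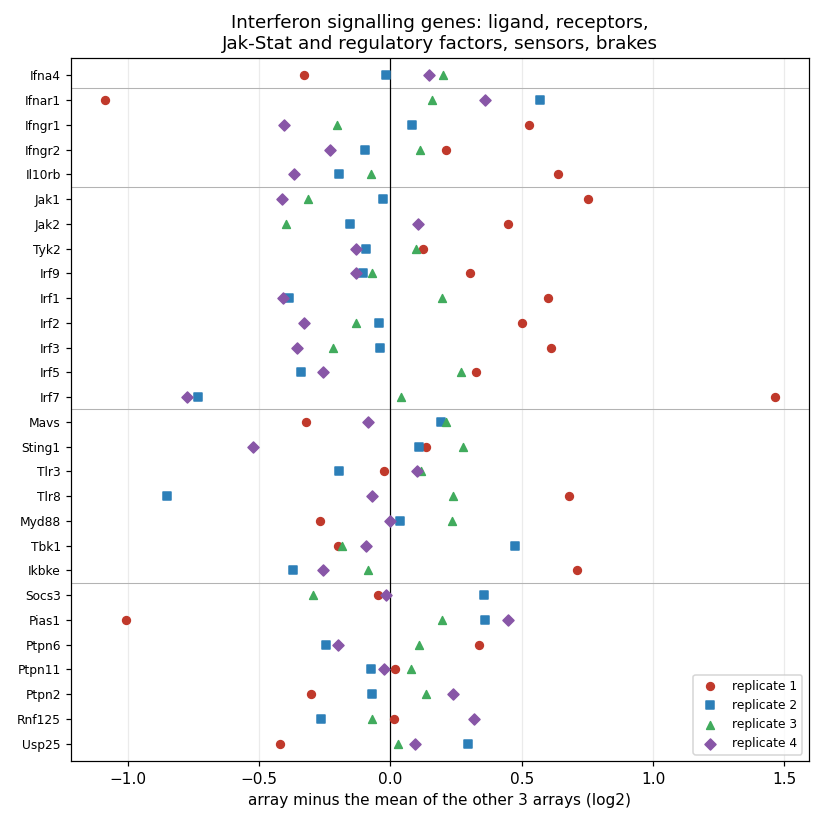
Each array minus the mean of the other 3 (log2, horizontal axis) for the detected interferon ligand, receptor, kinase, transcription factor, sensor and brake genes. Replicate 1 is the rightmost point for all 9 kinases and factors and the leftmost for Ifnar1.

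A further 26 interferon-stimulated genes outside the list were looked at in the same way. Of 22 measured, 19 were detected (86.4%, against 53.1% of all named genes). Of the 19, 12 were highest and 5 lowest on replicate 1, against 42.3% and 32.7% of all detected genes. Cxcl10, a chemokine that draws T cells, had levels of 1.15, -0.29, -0.25 and 0.14. Lgals3bp had 7.13, 6.61, 6.57 and 6.42, Nmi had 2.45, 1.99, 1.87 and 1.73, and Ifi30, a lysosomal thiol reductase gene used in antigen processing, had 7.94, 7.66, 7.64 and 7.53. All 4 were highest on replicate 1. Lgals9 was well above background on no array. The ISG15-conjugating enzyme gene Ube2l6, from a separate list and not in these counts, had 0.36, 0.20, -0.44 and -1.15. Its readings were spread over all arrays.

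The cells carried the markers of their labelled type. All 11 measured macrophage genes were detected, against 53.1% of all named genes. Among them were Cd68, Csf1r and Spi1, while Itgax, Chil3 and Ear1 had no named probe. The macrophage genes had a median deviation of 0.43 on replicate 1, and 7 of 11 were highest there, against 42.3% of all detected genes. Cd68 and Spi1 were not among these 7, with deviations of -0.03 and -0.20. Of the cell cycle genes 8 of 11 were highest there, with a median deviation of 0.29. The 14 reference genes had a median deviation of -0.05. Detected were 4 of 7 dendritic cell markers (median deviation on replicate 1 of 0.41, with Siglech not measured). For T and NK cells it was 4 of 10 (0.00), for B cells 1 of 3 (-0.04) and for neutrophils 1 of 7 (0.60). For epithelium it was 1 of 11 (-0.29) and for fibroblasts and endothelium 5 of 9 (0.01). The shares for dendritic cells (57.1%) and for fibroblasts and endothelium (55.6%) lay close to the 53.1% of all named genes. The detected ones were Tcf4, Batf3, Clec9a and Ccr9 of dendritic cells, Tbx21, Cd3d, Cd4 and Gzmb of T and NK cells, Pax5 of B cells, Camp of neutrophils, Foxj1 of epithelium, and Vwf, Pecam1, Cdh5, Dcn and Col1a2 of fibroblasts and endothelium. Tbx21 had levels of 7.92, 7.01, 7.84 and 7.79, and Vwf had 4.16, 3.93, 4.21 and 4.32. Others, among them Cd3e, Elane, S100a8, Epcam and Col3a1, were well above background on no array. What part the signal depth of replicate 1 or its macrophage and cell cycle levels have in the interferon pattern was not tested.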

How the data were processed

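Total RNA of 4 replicates was labelled with Cy3 and hybridised to single-colour Agilent arrays, scanned on a single slide. Per spot the authors deposited a background-subtracted intensity and a set of 0 or 1 flags, made with Agilent Feature Extraction 11.0.1.1, per the file headers and the submitters' processing notes; the flags enter as given. The files scale nothing between arrays. The analysis left out 4259 controls and, on each array, 440 to 1206 spots with outlier flags. No spot was saturated. Log2 processed signals were averaged over the spots of a probe and scaled by subtracting the array's 75th percentile, and a gene took the mean of its detected probes. Accessions without version were matched to RefSeq symbols (GRCr8), which named 17614 of 40539 accessions; the array's own annotation is on rn4, and probes carry no gene name of their own. Promoters come from the RefSeq table of GRCr8. Detection was also tested with limma 3.58.1 in R 4.3.3, on all probes, and that test was tried on simulated data. Spots in and beside surface blocks of 8 rows and 8 columns whose median on 1 array lay more than 1 log2 unit low formed the dim patch. Protein sequences were not used here, so the planned comparison of proteins was not made. Some genes of the pathway and marker lists are not reported here and are left out of the counts of those lists. The genes and lists were chosen with earlier results of these data known. Every gene of the list is named; from other lists values are given for the first 4 detected genes, with Irf7 and the genes of the closing section chosen after their values were seen. The number of arrays limits the precision. Replicates of 1 group allow no comparison between conditions.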

Additional observations from a re-analysis of the deposited data

Results flagged for a closer look

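In 7 of the 40 detected genes a single array lay apart from the other 3. The gap was more than chance gives in 1 of 20 sets of 4, and the array was replicate 1 each time. Among all detected genes 8.32% had such an array, whichever of the 4 it was. The share set apart on replicate 1 was not counted among them. Replicate 1 was the highest array for 42.3% of all detected genes and the lowest for 32.7%. The measure is the gap between the extreme array and its nearest neighbour as a share of the whole range, set against Dixon's critical value for 4 samples. The share was 0.976 for Usp18, whose replicate 1 was the lowest. It was 0.969 for Gbp5, 0.892 for Sp100, 0.876 for Rtp4, 0.856 for Ifitm2, 0.854 for Bst2 and 0.843 for Mx1, each with replicate 1 the highest.

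Of 48 other detected genes of the interferon lists, 5 met the same measure, a share near the 8.32% of all detected genes. Replicate 1 was the highest for Apobec1 (0.869; levels of 4.24 against 1.44 to 1.80) and Irf9 (0.860). It was the lowest for Tor1aip1 (0.847; 2.00 against 2.53 to 2.62) and Cd274 (0.836; -1.44 against -0.24 to 0.00). For Tbk1 (0.845) it was replicate 2 that stood apart, at -1.27 against -1.77 to -1.69. The cause was not tested for any of them.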

How the results depend on the processing

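In the alternatives run, the number of members well above background lay between 37 and 40 (47.5% to 57.3% of all named genes), and it was 41 with the positive and significant flag instead (66.9%). The number of members above negative controls lay between 40 and 42 (64.6% to 70.1%). The median deviation on replicate 1 lay between 0.30 and 0.52 in all alternatives that hold that array, and 25 to 30 genes were highest there. The median level of members, 1.20, follows the zero of each scale: -1.88 with the percentile over detected probes, -6.85 on reference genes, 0.91 under normexp, 0.98 without a filter on dim probes and 0.96 without the dim patch. Without one replicate it lay between 1.03 and 1.33, and the median SD between 0.17 (without replicate 1) and 0.42. Small counts of genes highest on the other arrays moved. On replicate 2 (2 as reported) it was 5 under normexp, 1 without a filter and 1 with the first probe. On replicate 3 (5 as reported) it was 2 with the percentile over detected probes, 3 under quantile normalization and 0 on reference genes. On replicate 4 (6 as reported) it was 10 with the percentile over detected probes. With a replicate left out these counts lay between 2 and 8 for replicate 2, 6 and 22 for replicate 3 and 6 and 10 for replicate 4; the highest came without replicate 1. For single genes, 780 values moved by less than the gene's SD and 134 by more. No paired analysis was possible because there is a single group. Ifit1 and Ifitm3 gave signals near the negative controls, so no level is given for them.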

Other observations

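Several genes of the list are neighbours in the GRCr8 assembly, and neighbours did not always move alike on replicate 1. Oas3 and Oas2, next to each other, deviated by 0.82 and 1.17, and Mx1 and Mx2, with 1 coding gene between them, by 1.35 and 1.02. Ifitm2 and Ifitm1 deviated by 0.59 and 0.44. Other neighbours parted. Parp9, Dtx3l and Parp14, consecutive in the genome, deviated by 0.46, -0.16 and 0.40, Ifit2 and Ifit3 by 0.23 and -0.68, and Rsad2 and Cmpk2 by -0.98 and 0.00.

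Among macrophage genes, chosen after their values were seen, Fcgr1a, the high-affinity antibody receptor that interferon gamma is known to induce, had levels of 5.67, 4.34, 4.63 and 4.44 on replicates 1 to 4, and the mannose receptor Mrc1 had 3.71, 2.23, 2.31 and 2.50. Cd274, a checkpoint ligand that interferon is also known to induce, had -1.44, -0.08, -0.24 and 0.00.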
